A study of Mus musculus with 4 samples.

Results

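The CDC7-DBF4 kinase and the MCM helicase genes were examined in J558 allografts, taking the 10 genes of a list written by name (Cdc7, Dbf4, Mcm2, Mcm3, Mcm4, Mcm5, Mcm6, Mcm7, Mcm10 and Cdc45) from the 24421 genes in the count tables. All 10 were found, and all 10 were among the 13669 genes with enough counts to be tested. Bulk RNA-seq was available for 2 vehicle-treated tumours (Vehicle-1 and Vehicle-2) and 2 TAK-931-treated tumours (TAK-931-1 and TAK-931-2), and the libraries were compared one by one as well as by group. J558 is a mouse plasma cell tumour line. Every tumour grew under the skin of the right flank of a female BALB/c mouse, a host with an intact immune system, and was taken on day 6. The vehicle group was given methylcellulose at 0.5% by mouth, and the treated group was given TAK-931, a selective CDC7 inhibitor, by mouth in daily doses of 60 mg/kg over the 6 days. RNA came from the whole tumour, so J558 cells and host cells were measured together. The labels name each library as a sample of its own and do not say whether RNA of several mice was pooled.

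CDC7 is a serine/threonine kinase that works only when bound to its regulatory subunit DBF4, and the pair is called DDK. Before S phase, MCM2 to MCM7 are loaded onto replication origins as an inactive ring. DDK phosphorylates the ring, mainly on the tails of MCM2, MCM4 and MCM6, after which CDC45 and the GINS complex join it to form the working helicase and MCM10 helps it to start unwinding DNA. The genes of this machinery are transcribed mainly in dividing cells as they pass from G1 into S phase, many of them under the E2F transcription factors. The present data hold RNA levels only, and neither kinase activity nor phosphorylation of the ring was measured in them.

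Promoter sequences are shown here for the genes on which the results below turn. These are the 4 members whose promoter held a match to the E2F site (Mcm3, Mcm5, Mcm6 and Mcm7), Cdc45, which had the largest difference between the groups, and Cdc7, the target of the drug. Each sequence was taken from RefSeq (GRCm38.p6, the assembly that mm10 stands for), runs 5′ to 3′ on the strand of the gene, and covers 250 bases before to 50 bases after the annotated start. Capitals mark every match to the E2F site, searched as TTTCCCGC, TTTCGCGC, TTTGCCGC or TTTGGCGC on both strands.
Mcm3, chr1:20820263-20820562, - strand: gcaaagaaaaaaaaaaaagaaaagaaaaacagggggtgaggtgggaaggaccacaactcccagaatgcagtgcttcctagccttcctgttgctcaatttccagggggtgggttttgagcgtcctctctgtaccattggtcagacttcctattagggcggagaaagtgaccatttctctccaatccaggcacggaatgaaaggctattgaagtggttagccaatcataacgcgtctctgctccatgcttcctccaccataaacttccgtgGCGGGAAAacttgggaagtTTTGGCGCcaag
Mcm5, chr8:75109259-75109558, + strand: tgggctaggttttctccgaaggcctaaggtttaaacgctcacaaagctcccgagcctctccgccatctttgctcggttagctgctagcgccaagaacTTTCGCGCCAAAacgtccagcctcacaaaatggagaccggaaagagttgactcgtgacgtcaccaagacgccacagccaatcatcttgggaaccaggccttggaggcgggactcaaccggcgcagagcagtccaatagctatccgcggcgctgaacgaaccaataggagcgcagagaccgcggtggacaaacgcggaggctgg
Mcm6, chr1:128359656-128359955, - strand: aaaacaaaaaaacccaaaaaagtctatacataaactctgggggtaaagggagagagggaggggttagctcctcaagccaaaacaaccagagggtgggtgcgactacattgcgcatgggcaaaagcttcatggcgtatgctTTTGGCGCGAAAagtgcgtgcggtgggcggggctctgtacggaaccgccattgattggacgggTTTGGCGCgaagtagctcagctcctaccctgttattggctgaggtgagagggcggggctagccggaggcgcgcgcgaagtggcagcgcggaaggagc
Mcm7, chr5:138171834-138172133, - strand: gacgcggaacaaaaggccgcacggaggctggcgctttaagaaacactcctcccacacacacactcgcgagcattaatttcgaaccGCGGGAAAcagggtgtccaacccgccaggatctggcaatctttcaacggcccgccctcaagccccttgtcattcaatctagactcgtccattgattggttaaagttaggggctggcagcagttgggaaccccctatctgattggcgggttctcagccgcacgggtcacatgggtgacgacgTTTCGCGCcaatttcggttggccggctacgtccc
Cdc45, chr16:18811923-18812222, - strand: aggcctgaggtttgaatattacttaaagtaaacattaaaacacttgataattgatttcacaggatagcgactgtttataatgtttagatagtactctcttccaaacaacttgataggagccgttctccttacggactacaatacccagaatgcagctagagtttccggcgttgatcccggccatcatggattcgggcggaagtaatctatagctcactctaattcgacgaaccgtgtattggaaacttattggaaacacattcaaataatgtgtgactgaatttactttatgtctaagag
Cdc7, chr5:106964072-106964371, + strand: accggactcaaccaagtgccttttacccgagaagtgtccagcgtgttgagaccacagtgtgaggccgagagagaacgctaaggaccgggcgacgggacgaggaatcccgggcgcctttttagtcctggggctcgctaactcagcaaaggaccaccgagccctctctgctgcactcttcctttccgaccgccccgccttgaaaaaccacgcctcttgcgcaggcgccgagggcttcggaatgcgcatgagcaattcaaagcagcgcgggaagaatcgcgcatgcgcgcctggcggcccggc

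A promoter was found in RefSeq's table for 9 of the 10 members, all but Mcm4. Cdc7 and Mcm7 had a second annotated promoter each, with no E2F match. An E2F match was held by 4 of these 9 genes (44.4%), against 2.61% of the 27025 genes with a promoter in the table. The match was not particular to the members. Of the other licensing and firing genes described below, 18 had a promoter in the table, and 8 of these (44.4%) held an E2F match. The matches began 19 and 38 bases past the start in Mcm3. In Mcm5 they began 153 and 149 bases before the start, on opposite strands and overlapping. In Mcm6 they began 110, 106 and 47 bases before the start, the first pair again on opposite strands and overlapping. In Mcm7 they began 165 bases before and 16 bases past the start. The CCAAT box (CCAAT, both strands), the site of the factor NF-Y, was present in 7 of the 9 genes, against 41.1% of all genes with a promoter. It was present in 8 of the 18 other licensing and firing genes. One CCAAT match in Mcm7 shared 1 base with the E2F match past the start. The CHR element (TTTGAA or TTCGAA, both strands), known from genes of the later cell cycle, was present in 5 of the 9, against 21.7% of all genes. It was present in 1 of the 18 other licensing and firing genes. These are matches of letters in a fixed window and were not tested as sites of binding.

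Before the members are described, the state of the 4 libraries has to be given. Total counts ran from 16487902 to 19589339 per library. The vehicle pair was alike, and the treated pair was not. The summed level of 10 T cell markers was 71.0 and 76.7 CPM (read counts set to the same library total, adjusted by TMM factors) in the vehicle-treated libraries, 1813 in TAK-931-1 and 172 in TAK-931-2. The sum of 10 macrophage markers was 626, 532, 9167 and 1632 CPM in the same order, and the sum of 8 fibroblast markers was 1884, 2141, 14810 and 5106 CPM. All 28 of these genes were highest in TAK-931-1. In that library Trap1a, a tumour antigen of J558, was at 356 CPM, against 1127 and 1095 CPM with vehicle and 1235 in TAK-931-2. The labels call the cells B lymphocytes. Of the mature B cell markers, Pax5 had 0 counts in every library and Cd79a had 0 to 30, whereas Ms4a1 had 252 to 904 counts and Cd79b had 1405 to 3485. Plasma cell genes were abundant, with Jchain at 5080 and 5657 CPM with vehicle, 3136 in TAK-931-1 and 8124 in TAK-931-2. In bulk tissue, fewer cells of a type and less RNA per cell cannot be told apart.

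In the 2 TAK-931-treated libraries together, most members were lower than in the vehicle-treated libraries, but no member passed the test across all genes. Both TAK-931 libraries were below both vehicle libraries for 9 of the 10 members (all but Mcm4) with TMM scaling, against 32.7% of the 13669 tested genes. No member had both TAK-931 libraries above, against 30.0% of tested genes. With median-of-ratios size factors, or with library size only, the count was 6 of 10, against 30.3% and 30.6% of tested genes. Cdc7, Dbf4 and Mcm10 then overlapped as well, and Mcm2, Mcm3, Mcm5, Mcm6, Mcm7 and Cdc45 did not. The fitted log2 fold changes of the 10 members ran from -1.11 to -0.06 with a median of -0.41, beside a median of 0.02 over all tested genes. All 10 were negative, beside 49.0% of tested genes. edgeR's quasi-likelihood test with Benjamini-Hochberg adjustment called 0 of the 10 members at an adjusted p under 0.05, and 0% of all tested genes. DESeq2 called 1411 of all genes (10.3%), with 0 members among them, and limma-voom called 0. At an unadjusted p under 0.05 edgeR called 0 members, against 6.55% of genes lower and 11.6% of genes higher in TAK-931. The lowest adjusted p over all genes was 0.275. With 2 libraries a side, an exact permutation test of a single gene cannot go below a p of 0.333. The p-values here set the difference between the groups against the spread within groups, which was estimated from no more than these 4 tumours.

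**Figure D1:**
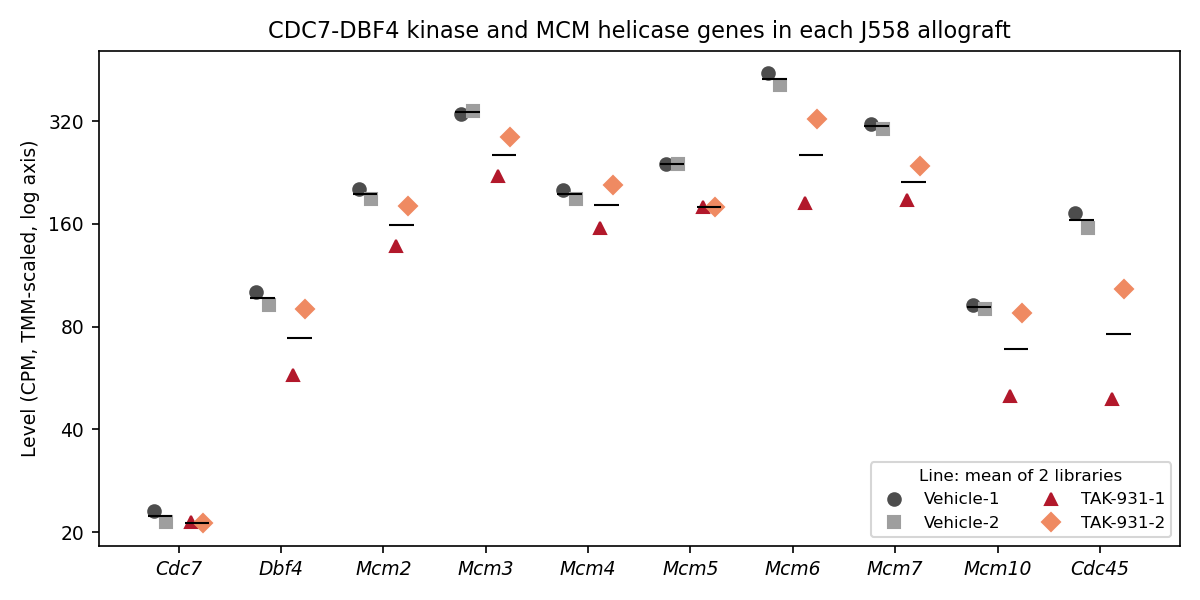
Level of each member in each library, as TMM-scaled CPM on a log axis. Circles and squares are the vehicle-treated libraries, triangles and diamonds the TAK-931-treated libraries, and short lines the mean of each pair. The vehicle pair lies close together for every gene, TAK-931-1 is the lowest or near the lowest point for each gene, and TAK-931-2 lies between for most, but reaches 209 CPM, above both vehicle libraries, for Mcm4.

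Cdc7, which encodes the kinase that TAK-931 inhibits (mm10, as for all positions here, chromosome 5, 106964322 to 106984439), was the least expressed member and differed the least. It was at 23.0 CPM in Vehicle-1, 21.5 in Vehicle-2, 21.3 CPM in TAK-931-1 and 21.2 in TAK-931-2. The groups did not overlap with TMM scaling, but the gap between them was narrower than the gap within the vehicle pair. The means were 22.2 ± 1.10 CPM and 21.3 ± 0.069 CPM (SD, n = 2 each), and the log2 fold change was -0.06 (SE 0.26, adjusted p = 0.896 by edgeR). The 95% interval of the fit ran from -0.76 to 0.64 on the log2 scale, so a moderate loss or gain of the transcript lay within the error. With at least 10 counts required in every library, the value was 0.0097.

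Dbf4, the activating subunit of the kinase (chromosome 5, 8396969 to 8422716), was at 101 and 92.7 CPM in the vehicle pair, against 57.7 CPM in TAK-931-1 and 90.2 in TAK-931-2. TAK-931-1 stood apart from the other 3 libraries, and TAK-931-2 lay next to Vehicle-2. The log2 fold change was -0.39 (SE 0.29, adjusted p = 0.456 by edgeR). As a ratio of levels per kilobase of exon, Dbf4 stood at 5.82 and 5.73 times Cdc7 in the vehicle-treated libraries, 3.59 times in TAK-931-1 and 5.63 times in TAK-931-2. The regulatory subunit was thus the more abundant transcript of the pair in each of the 4 tumours.

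Mcm2, Mcm4 and Mcm6 encode the ring subunits whose tails DDK phosphorylates, and their levels did not follow 1 pattern. Mcm6 (chromosome 1, 128331591 to 128359656) had the largest difference of any ring gene. It was at 442 and 407 CPM in the vehicle pair, against 185 CPM in TAK-931-1 and 325 in TAK-931-2. Both TAK-931 libraries were below the vehicle pair, TAK-931-1 at 43.5% and TAK-931-2 at 76.4% of the vehicle mean. The means were 425 ± 24.6 CPM and 255 ± 98.8 CPM (SD, n = 2 each), the log2 fold change was -0.74 (SE 0.35), and the adjusted p was 0.313 by edgeR.

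Mcm2 (chromosome 6, 88883474 to 88898780) was at 203 and 189 CPM with vehicle, 138 CPM in TAK-931-1 and 181 in TAK-931-2. TAK-931-2 lay close below Vehicle-2, and TAK-931-1 was the lowest. The log2 fold change was -0.30 (SE 0.25, adjusted p = 0.490 by edgeR). Mcm4 (chromosome 16, 15623897 to 15637400) was at 202 and 189 CPM with vehicle, 156 CPM in TAK-931-1 and 209 in TAK-931-2. It was the member whose groups overlapped under each scaling, with its highest and its lowest value both in TAK-931-treated tumours. The log2 fold change was -0.10 (SE 0.26, adjusted p = 0.824 by edgeR), and without TAK-931-1 it turned to 0.091.

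Mcm3, Mcm5 and Mcm7, the other ring subunits, were below the vehicle pair in both TAK-931 libraries under each of the 3 scalings. Mcm5 (chromosome 8, 75109509 to 75128439) was the steadiest of all. It was at 239 and 240 CPM in the vehicle pair, against 180 CPM in TAK-931-1 and 179 in TAK-931-2, which is 74.9% and 74.6% of the vehicle mean. Here the 2 libraries within each group were nearly equal, and TAK-931-1 did not stand apart. The log2 fold change was -0.42 (SE 0.21, adjusted p = 0.326 by edgeR).

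Mcm7 (chromosome 5, 138164589 to 138171862) was at 314 and 304 CPM with vehicle, 187 CPM in TAK-931-1 and 236 in TAK-931-2, which gave a log2 fold change of -0.54 (SE 0.25, adjusted p = 0.298 by edgeR). Mcm3 (chromosome 1, 20803014 to 20820213) was at 337 and 343 CPM with vehicle, 221 CPM in TAK-931-1 and 288 in TAK-931-2, for a log2 fold change of -0.42 (SE 0.25, adjusted p = 0.375 by edgeR). Both genes were lower in TAK-931-1 than in TAK-931-2, and the vehicle pair differed by a factor of only 1.03 and 1.02. Mcm3, Mcm5, Mcm6 and Mcm7 are also the 4 members with an E2F match in the promoters printed above. Mcm2 and Cdc45, which lay below the vehicle pair under each scaling as well, had none. For Mcm4, the ring gene that overlapped, no promoter was found. A link between the matches and the levels was not tested.

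Cdc45 and Mcm10 encode the factors that turn the loaded ring into a moving helicase. Cdc45 (chromosome 16, 18780447 to 18811972), whose product is a permanent part of the active helicase, had the largest difference of the 10 members. It was at 172 and 156 CPM in the vehicle pair, against 49.2 CPM in TAK-931-1 and 103 in TAK-931-2. Both TAK-931 libraries lay far below the vehicle pair, at 29.9% and 62.7% of its mean, and they also lay far from each other. The means were 164 ± 11.9 CPM and 76.0 ± 38.0 CPM (SD, n = 2 each), and the log2 fold change was -1.11 (SE 0.42, 95% interval of the fit -2.23 to 0.01). It did not pass the test, with an unadjusted p of 0.052 and an adjusted p of 0.276 by edgeR. Over the 9 alternatives that kept all 4 libraries, the unadjusted p ranged from 0.0254 to 0.0668 and the adjusted p from 0.136 to 0.342.

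Mcm10 (chromosome 2, 4990724 to 5012791) was at 92.9 and 89.9 CPM with vehicle, 50.0 CPM in TAK-931-1 and 87.6 in TAK-931-2. TAK-931-2 was next to the vehicle pair, at 95.8% of its mean, and TAK-931-1 was at 54.8%. The log2 fold change was -0.41 (SE 0.33, adjusted p = 0.487 by edgeR).

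**Figure D2:**
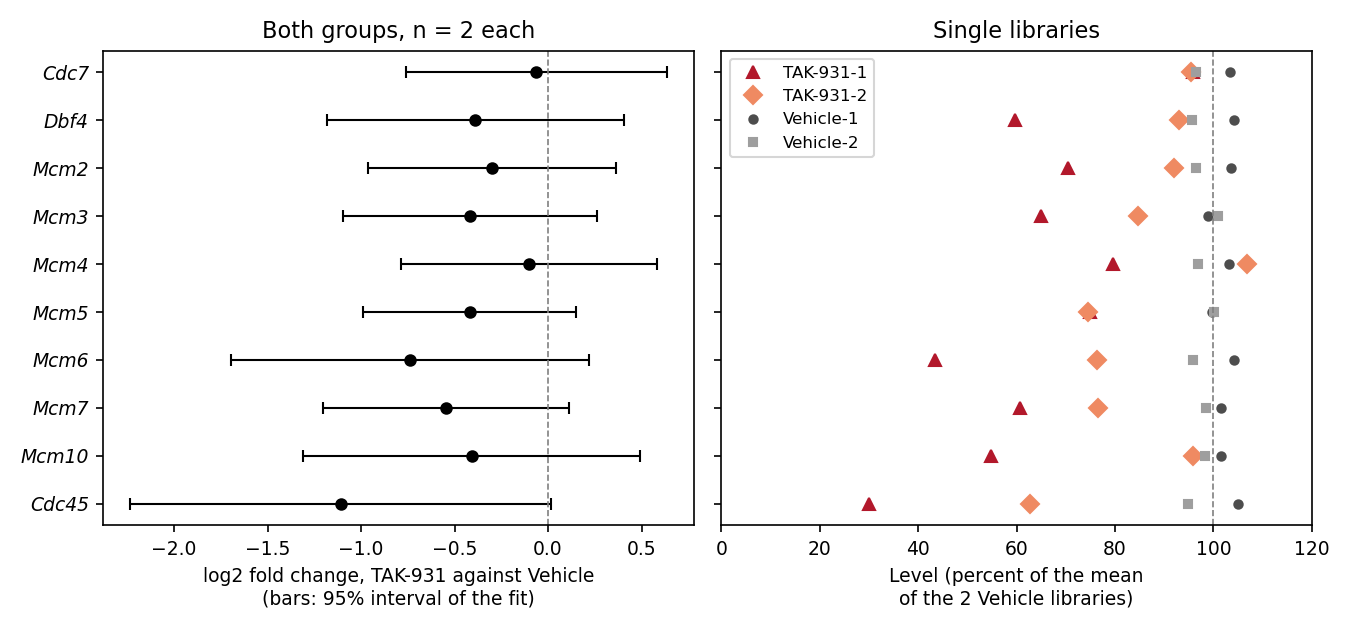
Left, fitted log2 fold change of each member, TAK-931 against vehicle (n = 2 each), with the 95% interval of the edgeR fit. Right, each library as a percent of the mean of the vehicle pair. Every interval on the left includes 0, that of Cdc45 only just (upper end 0.01). On the right, TAK-931-1 runs from 29.9% for Cdc45 to 96.0% for Cdc7, TAK-931-2 runs from 62.7% for Cdc45 to 107% for Mcm4, and the 2 coincide for Cdc7 and Mcm5.

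Compared one by one, the TAK-931-treated libraries differed in how many members they held below the vehicle pair and by how much. TAK-931-1 was below both vehicle libraries for 10 of 10 members, against 47.4% of tested genes. TAK-931-2 was below both for 9 of 10, against 44.4% of tested genes, and for 6 of 10 with library size only, against 39.7%. The median log2 ratio of the members was -0.68 for TAK-931-1 to Vehicle-1 and -0.66 for TAK-931-1 to Vehicle-2. For TAK-931-2 the medians were -0.20 and -0.16. The median over all tested genes lay between -0.04 and 0.01 in each of these 4 comparisons and in those within groups. The members also differed inside the groups, with a median of 0.10 for Vehicle-1 to Vehicle-2 and -0.40 for TAK-931-1 to TAK-931-2. In the median, the gap between the 2 treated tumours was thus larger than the gap between TAK-931-2 and either vehicle-treated tumour.

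The counts behind these ratios were high enough that, for most members, counting error was small next to the gap between TAK-931-1 and the vehicle pair. Exact 95% binomial intervals from halved counts, which cover counting error only, put the log2 ratio of Cdc45 in TAK-931-2 to Vehicle-2 at -0.60, between -0.72 and -0.47. They put Mcm5 in the same pair of libraries at -0.43, between -0.52 and -0.33. For Dbf4 the same ratio was -0.04, between -0.18 and 0.11, and for Mcm10 it was -0.04, between -0.19 and 0.11, so that neither differed from that library beyond counting error. Cdc7 had the fewest counts, 358 to 405 per library, and its counting intervals included 0 in each of the 6 pairs of libraries. Ratios of single libraries carry no replicate check.

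Each TAK-931 library was also tested alone against the vehicle pair with edgeR, in which case the lone treated tumour is assumed to vary as the vehicle pair did. TAK-931-2 alone gave an adjusted p under 0.05 with a lower level for 4 of 10 members, Mcm5, Mcm6, Mcm7 and Cdc45, against 16.1% of the 13915 genes tested. For Mcm3 the adjusted p was 0.0502. TAK-931-1 alone gave such a call for 9 of 10 members, all but Cdc7, against 29.8% of the 14506 genes tested. For Cdc45, the log2 fold change was -0.68 (SE 0.10, adjusted p = 0.00227 by edgeR) from TAK-931-2 and -1.76 (SE 0.11, adjusted p = 0.000314 by edgeR) from TAK-931-1. When a vehicle library was left out in place of a treated one, 0 members were called, with or without adjustment. Over all alternatives the adjusted p of Cdc45 reached from 0.000314 to 0.986. Calls at an adjusted p under 0.05 were thus seen only in the fits with 1 treated tumour left out.

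To compare genes with each other, levels were divided by the deposited exon length. In the vehicle-treated libraries the order, in CPM per kilobase, was Mcm6 (mean 146), Mcm7 (129), Mcm3 (118), Cdc45 (76.6), Mcm5 (69.7), Mcm2 (58.2), Mcm4 (54.4), Dbf4 (39.6), Mcm10 (23.2) and Cdc7 (6.86). Neighbours in this order did not overlap between the 2 vehicle libraries, except Mcm2 and Mcm4. In the TAK-931-treated libraries the order of the means was Mcm7, Mcm3, Mcm6, Mcm5, Mcm4, Mcm2, Cdc45, Dbf4, Mcm10 and Cdc7. There 6 of the 9 neighbouring pairs overlapped, and the pairs that did not were Mcm6 above Mcm5, Dbf4 above Mcm10 and Mcm10 above Cdc7. Cdc45 stood in the fourth place in both vehicle libraries, in the eighth in TAK-931-1 and in the seventh in TAK-931-2. Mcm6 was in the first place in both vehicle libraries and in TAK-931-2, and in the third in TAK-931-1, and the means of Mcm7, Mcm3 and Mcm6 with TAK-931 were nearly equal at 88.4, 88.1 and 87.8 CPM per kilobase.

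The ring needs its 6 subunits in equal number, and the transcripts were not at equal levels in any tumour. The summed level of Mcm2 to Mcm7 per length was 586 and 565 CPM per kilobase with vehicle, 355 in TAK-931-1 and 474 in TAK-931-2. The treated tumours were thus at 61.7% and 82.3% of the vehicle mean, and the groups did not overlap (575 ± 14.9 against 414 ± 84.0 CPM per kilobase, SD, n = 2 each). The most abundant ring transcript exceeded the least abundant by a factor of 2.71 and 2.67 with vehicle, 1.91 in TAK-931-1 and 2.15 in TAK-931-2. Mcm6 made up 26.0% and 24.9% of the sum with vehicle, 17.9% in TAK-931-1 and 23.6% in TAK-931-2. Mcm4 made up 9.59% and 9.33% with vehicle and 12.2% and 12.3% with TAK-931, and Mcm2 10.3% and 9.94% with vehicle and 11.5% and 11.3% with TAK-931. The share of Mcm7 was lower with TAK-931 (22.0% and 20.8%, against 22.3% and 22.4%), and the shares of Mcm3 and Mcm5 overlapped between the groups. Being ratios within a library, these shares do not depend on the scaling.

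Cdc45 was lower even against the ring. Its level per length was 82.4% and 77.2% of the mean ring gene with vehicle, 38.8% in TAK-931-1 and 60.8% in TAK-931-2. For Mcm10 the groups overlapped, at 24.1% and 24.2% with vehicle, 21.4% in TAK-931-1 and 28.1% in TAK-931-2. These ratios do not depend on the scaling either, and with 2 tumours a side they were not tested.

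**Figure D3:**
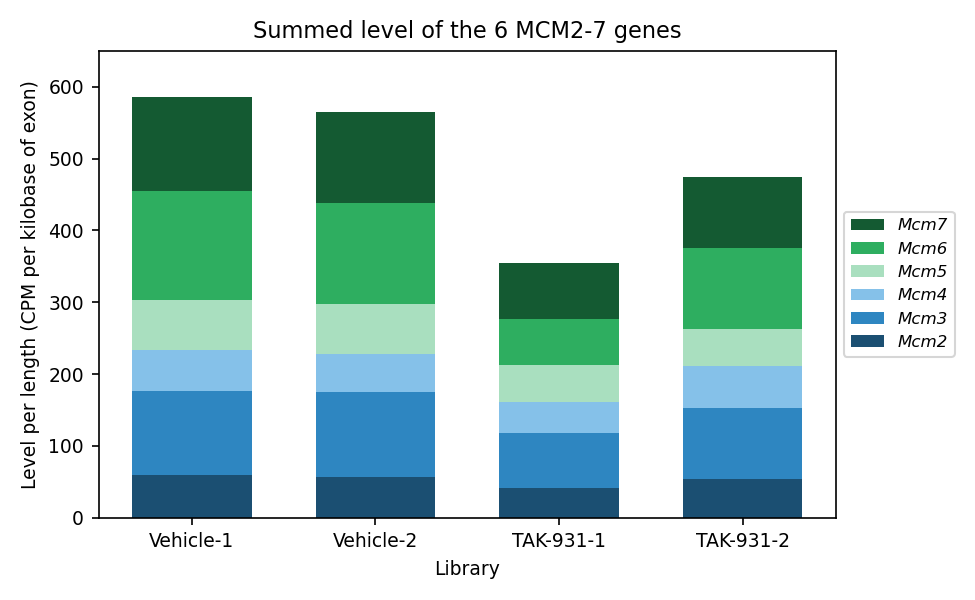
Stacked level of the 6 ring genes in each library, in CPM per kilobase of exon, with the height of each bar giving the sum. The bars reach 586 and 565 for the vehicle-treated tumours, 355 for TAK-931-1 and 474 for TAK-931-2, and the Mcm6 layer is thinner in TAK-931-1 than in the others.

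Markers of other cells differed between the tumours along with these sums. In TAK-931-1, where the ring genes were lowest, the T cell, macrophage and fibroblast lists stood at 24.5, 15.8 and 7.36 times their vehicle mean. In TAK-931-2 they stood at 2.33, 2.82 and 2.54 times. The endothelial, skeletal muscle and adipocyte lists stood at 3.01, 6.52 and 4.66 times in TAK-931-1 and at 0.95, 0.108 and 0.508 times in TAK-931-2. The sum of 10 plasma cell markers was 0.501 times its vehicle mean in TAK-931-1 and 1.38 times in TAK-931-2. In TAK-931-2, 4 of the 10 were below their vehicle mean (Sdc1, Xbp1, Mzb1 and Fkbp11). Of all tested genes, 49.9% were lower in that library than in Vehicle-1 and 52.2% lower than in Vehicle-2. Without Jchain and Irf4 the plasma cell sum in TAK-931-2 was 0.958 times. The sum of 8 proliferation genes (Mki67, Top2a, Pcna, Cdk1, Ccnb1, Birc5, Tyms and Rrm2) was 0.609 times its vehicle mean in TAK-931-1 and 0.974 times in TAK-931-2. In TAK-931-1 all 8 were below both vehicle libraries, against 47.4% of tested genes.

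In TAK-931-2, 7 of the 8 proliferation genes were below their vehicle mean, and Mki67 was not. Of all tested genes, 49.9% were below Vehicle-1 in that library and 52.2% below Vehicle-2. Mki67 was at 760 and 614 CPM with vehicle, 560 CPM in TAK-931-1 and 1006 in TAK-931-2. Top2a, Pcna, Cdk1, Tyms and Rrm2 lay below both vehicle libraries in both treated tumours (5 of the 8, against 32.7% of tested genes), with Pcna at 448 and 420 CPM with vehicle, 247 CPM in TAK-931-1 and 275 in TAK-931-2 (unadjusted p = 0.0281, adjusted p = 0.275 by edgeR). Without Mki67 the proliferation sum was 0.540 and 0.807 times its vehicle mean.

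Set against the proliferation sum, the ring sum was 97.1% and 103% of the vehicle mean ratio in the vehicle-treated libraries, 101% in TAK-931-1 and 84.4% in TAK-931-2. Without Mki67 it was 99.1% and 101%, then 114% in TAK-931-1 and 102% in TAK-931-2, so that the lower value in TAK-931-2 rested on that gene. Set against the plasma cell sum it was 105% and 94.8%, then 123% in TAK-931-1 and 59.7% in TAK-931-2. Without Jchain and Irf4 the values for the treated tumours were 159% and 86.0%. Set against Trap1a it was 100% and 99.6%, then 193% in TAK-931-1 and 74.1% in TAK-931-2. The part of the cell mixture in the members' levels was not tested.

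**Figure D4:**
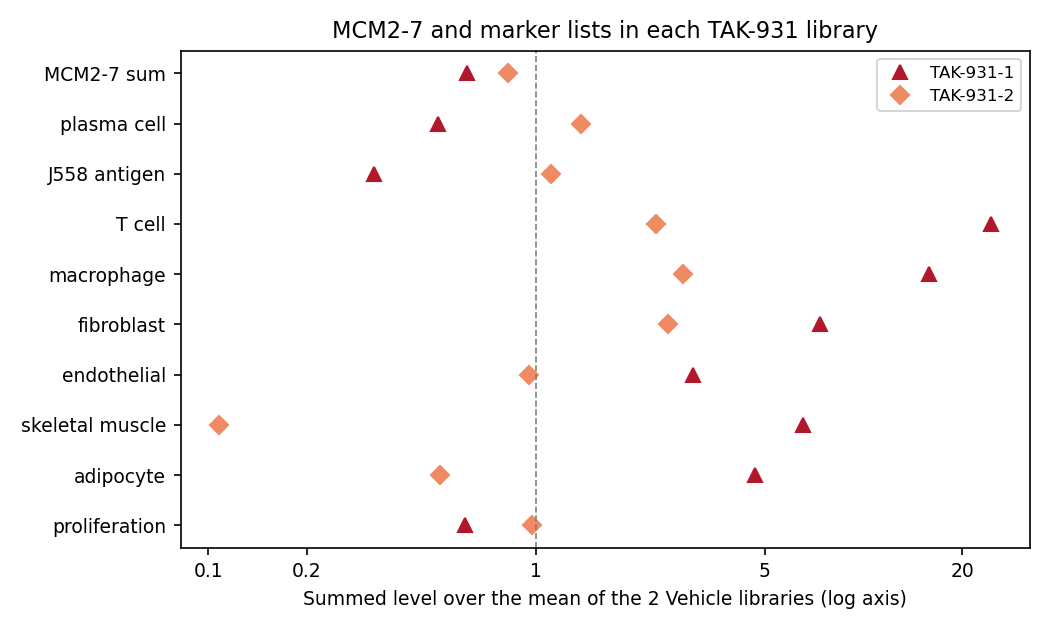
Summed level of the ring genes and of 9 marker lists in TAK-931-1 (triangles) and TAK-931-2 (diamonds), as a multiple of the mean of the vehicle pair on a log axis. The ring sum is below 1 in both, T cell, macrophage and fibroblast lists are above 1 in both and most so in TAK-931-1 (24.5 times for T cells), and the plasma cell list and the J558 antigen Trap1a are below 1 only in TAK-931-1. Jchain and Irf4 carry the plasma cell list in TAK-931-2, where the sum is 0.958 times without them.

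The other genes of origin licensing and firing were read from a list of 26 genes, all of which were tested. Their median log2 fold change was -0.43, beside 0.02 over all tested genes, and 24 of the 26 were negative, beside 49.0% of tested genes. None had an adjusted p under 0.05 by edgeR, and 1, Orc5, did by DESeq2, against 10.3% of all tested genes. At an unadjusted p under 0.05, 4 of 26 were lower (Orc5, Gins1, Gins4 and Ppp1cb), against 6.55% of all tested genes, and 0 were higher, against 11.6%. Both TAK-931 libraries were below both vehicle libraries for 15 of the 26 (32.7% of all tested genes) and above for 1 (30.0%), and these counts were the same under the other scalings.

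Of the 6 genes of the origin recognition complex, which marks origins and loads the ring, 5 had both treated tumours below the vehicle pair, against 32.7% of tested genes, and Orc1 had both above, against 30.0%. Orc5 was at 52.8 and 52.4 CPM with vehicle, 22.2 CPM in TAK-931-1 and 21.2 in TAK-931-2. Unlike most members, it was as low in TAK-931-2 as in TAK-931-1, with a log2 fold change of -1.28 (SE 0.21, unadjusted p = 0.00285, adjusted p = 0.275 by edgeR). DESeq2 gave it an adjusted p of 0.00801, the lowest over the 9 alternatives on all 4 libraries, which reached up to 0.342. Orc2 was at 199 and 189 CPM with vehicle, 71.6 CPM in TAK-931-1 and 149 in TAK-931-2, for a log2 fold change of -0.81 (SE 0.41, adjusted p = 0.328 by edgeR). Orc1 was at 16.4 and 15.3 CPM with vehicle, 19.2 CPM in TAK-931-1 and 23.3 in TAK-931-2, for a log2 fold change of 0.42 (SE 0.30, adjusted p = 0.428 by edgeR).

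The 4 genes that load the ring or hold loading back had a median log2 fold change of -0.22. Of these 4, only Gmnn, whose product geminin blocks loading, lay below the vehicle pair in both treated tumours, against 32.7% of tested genes. Cdc6 and Cdt1, the loaders, and Mcmbp, which binds MCM subunits, overlapped between the groups. The 10 genes of firing had a median of -0.45, and 5 of them lay below the vehicle pair in both treated tumours, against 32.7% of tested genes. Gins1, a subunit of the GINS complex that joins Cdc45 on the ring, was at 51.4 and 45.0 CPM with vehicle, 27.0 CPM in TAK-931-1 and 29.9 in TAK-931-2, for a log2 fold change of -0.76 (SE 0.23, unadjusted p = 0.0237, adjusted p = 0.275 by edgeR). Gins4 was at 69.0 and 70.8 CPM, then 39.1 and 49.7 CPM, whereas Gins2 and Gins3 overlapped. Ticrr, whose product brings CDC45 to origins, was at 34.3 and 29.3 CPM with vehicle, 27.5 CPM in TAK-931-1 and 52.7 in TAK-931-2, for a log2 fold change of 0.33 (SE 0.39, adjusted p = 0.615 by edgeR). The sign rested on TAK-931-2, since the log2 fold change of Ticrr was -0.23 without that library and 0.73 without TAK-931-1 (adjusted p = 0.279 and 0.00741 by edgeR).

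RIF1 and the protein phosphatase PP1 oppose DDK by removing its phosphates from the ring. Rif1, Ppp1cb and Ppp1cc lay below the vehicle pair in both treated tumours, against 32.7% of tested genes, and Ppp1ca overlapped. Ppp1cb was at 215 and 223 CPM with vehicle, 114 CPM in TAK-931-1 and 155 in TAK-931-2, for a log2 fold change of -0.70 (SE 0.26, unadjusted p = 0.0466, adjusted p = 0.275 by edgeR). Mcm8 and Mcm9, relatives of the ring genes that act in DNA repair, had log2 fold changes of -0.69 and -0.10.

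**Figure D5:**
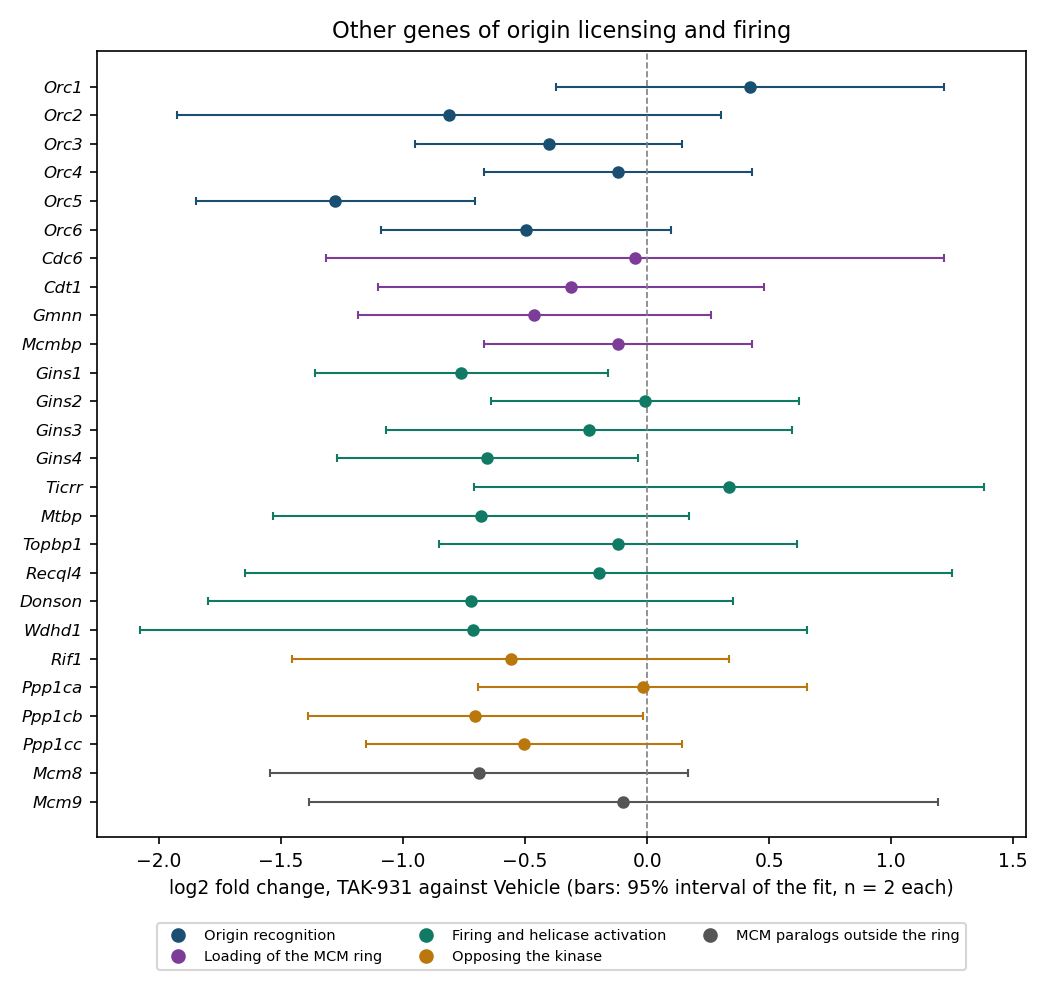
Fitted log2 fold change of the 26 other licensing and firing genes, TAK-931 against vehicle (n = 2 each), with the 95% interval of the edgeR fit and a colour for each role. Only the intervals of Orc5, Gins1, Gins4 and Ppp1cb lie wholly below 0, none lies wholly above 0, and Orc1 and Ticrr are the 2 genes with a positive value (that of Ticrr is negative without TAK-931-2).

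Several members share a start region with another gene that runs the other way, and the neighbours did not follow one pattern. Ufd1l, whose product works in the removal of ubiquitinated proteins, starts 322 bases from Cdc45. It was at 156 and 157 CPM with vehicle, 76.3 CPM in TAK-931-1 and 128 in TAK-931-2, below the vehicle pair in both as Cdc45 was. Ap4m1, a subunit of a vesicle adaptor, starts 159 bases from Mcm7 and went the other way, at 13.1 and 10.3 CPM with vehicle, 16.1 CPM in TAK-931-1 and 17.7 in TAK-931-2. Prkdc, the DNA repair kinase DNA-PKcs, starts 466 bases from Mcm4 and was at 53.9, 49.6, 36.9 and 49.0 CPM in the order Vehicle-1, Vehicle-2, TAK-931-1 and TAK-931-2. Slc25a40, a mitochondrial carrier that starts 122 bases from Dbf4, was at 13.3, 7.01, 14.0 and 6.53 CPM in the same order. None of these 4 neighbours passed the test (adjusted p between 0.336 and 0.989 by edgeR). The microRNA genes Mir25, Mir93 and Mir106b lie inside Mcm7 and had 0 to 2 counts per library.

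Over the 4 libraries, the members' profiles (log2 CPM less the mean of the gene) were compared with their common mean profile, which was 0.28 and 0.20 in the vehicle-treated libraries, -0.48 in TAK-931-1 and 0.00 in TAK-931-2. Mcm3 lay nearest to it, at a root mean square distance of 0.056 on the log2 scale, followed by Dbf4 at 0.065 and Mcm7 at 0.066. Cdc45 lay farthest at 0.418, having the same shape with a wider swing, and Cdc7 followed at 0.271, being nearly flat. Of the 9611 other tested genes with a mean log2 CPM over 3, the 5 nearest to the mean profile were Edc3, Exosc9, G3bp2, Cd44 and Rqcd1, at distances of 0.008 to 0.020. Edc3 was at 54.5, 52.1, 31.9 and 45.1 CPM and Cd44, the hyaluronan receptor, at 531, 494, 310 and 429 CPM in the order Vehicle-1, Vehicle-2, TAK-931-1 and TAK-931-2. With 4 libraries, such likeness describes these tumours and is no sign of a link between genes.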

How the data were processed

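RNA-seq was performed on 4 J558 allografts. The authors deposited 1 table per library of raw read counts per gene, without normalization, and a column of another kind with the exon length of each gene in bases. The submitters' processing notes name STAR 2.6.1c, featureCounts and mm10. The strand setting was not given in the sources used here, so reads of overlapping genes on opposite strands cannot be told apart. Of counts from 1 to 20, 17.9% to 23.9% were odd, so both mates of a pair appear to be counted, and counting intervals were computed from halved counts.

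Genes were kept with filterByExpr (minimum count 10) and libraries scaled by TMM. TAK-931 was compared with vehicle by edgeR 4.0.16 (R 4.3.3), robust quasi-likelihood test, two-sided, Benjamini-Hochberg over all tested genes at 0.05. The fits with a library left out were filtered anew. The scripts were tested on simulated data. Recovery was required there only at a smaller spread than in these tumours and for larger changes than any member showed. The check therefore cannot tell how many changes of the size seen here would be missed. Single-library ratios and profiles used a prior count of 2. Levels per length are TMM CPM over the deposited exon length. Promoters came from RefSeq (GRCm38.p6). The pairing by replicate number was checked: deviations of same-numbered libraries correlated at r = 0.004 across genes.

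The members, the list of 26 genes, the markers and the tests were chosen with earlier results of these data known. Named were all members, the 3 largest fitted changes in each direction of the list of 26 (only 2 were positive), neighbours with starts within 1000 bases or overlapping, and the 5 genes of nearest profile. Gins4, Ppp1cb and the other genes named from that list were chosen after their values were seen. As alternatives, DESeq2's median-of-ratios factors or the plain library size replaced TMM, and the filter was dropped or set to 10 counts in all 4 libraries. The others were DESeq2 1.42.0, limma-voom (limma 3.58.1), no robust estimation, halved counts, a replicate block, each library left out and, for single-library ratios, a prior count of 0.5. The marker sums without Mki67, or without Jchain and Irf4, were added after the data were examined. The summed level of the mature B cell markers is not reported here. Each group held 2 tumours.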

Additional observations from a re-analysis of the deposited data

How the results depend on the processing

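Of the 130 fold changes of members fitted under alternatives, 128 were negative. These were the same members refitted on the same libraries, so their signs are not independent of each other. The log2 fold change of Cdc7 turned to 0.0097 with at least 10 counts in every library, and that of Mcm4 ranged from -0.35 to 0.091 when a library was left out, the positive value coming without TAK-931-1. Of Orc1, Orc2, Orc5, Gins1 and Ticrr, whose values were compared over the alternatives, Ticrr changed sign, to -0.23 without TAK-931-2, and the others did not. The median of the members ranged from -0.44 to -0.34 over the alternatives on all 4 libraries, and it was -0.18 without TAK-931-1 and -0.69 without TAK-931-2. The summed ring level was -0.49 on the log2 scale, -0.28 without TAK-931-1 and -0.70 without TAK-931-2.

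No member was called at an adjusted p under 0.05 by any of the 9 alternatives on all 4 libraries, and leaving out a library gave 0 to 9 calls. The 4 calls without TAK-931-1 stood against 28.7% of all genes tested in that fit, in either direction, and the 9 without TAK-931-2 against 58.1%. Both fits without a vehicle library called 0 members and 0% of genes. At an unadjusted p under 0.05, 1 member (Cdc45) was called with no filter, by DESeq2, by limma-voom, without robust estimation and with the replicate block, against 15.9%, 23.5%, 14.3%, 19.0% and 16.2% of genes, and leaving out a library gave 0 to 9 members, against 6.86% to 63.1%. Of the list of 26, 1 gene (Orc5) was called at an adjusted p under 0.05 by DESeq2, against 10.3% of genes, and 0 to 18 when a library was left out, against 0% to 58.1%. At an unadjusted p under 0.05 the main count of 4 became 2 with library size only, 2 with at least 10 counts in every library, 2 by DESeq2 and 1 with the replicate block, against 17.2%, 18.5%, 23.5% and 16.2% of genes, and 0 to 18 when a library was left out. The replicate block, whose numbers did not pair the libraries, gave a median of -0.43 and called 144 of all genes at an adjusted p under 0.05, with 0 members among them. Other scalings and filters moved the median of all genes by at most 0.07 on the log2 scale, and the cause of these shifts was not tested.

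Depth limits little for most members, but it does for Cdc7, the lowest, with 358 counts in Vehicle-2. The counting error of that value was 7.47%, whereas Cdc7 lay 4.04% below the vehicle mean in TAK-931-1 and 4.48% in TAK-931-2. The biological coefficient of variation was 0.436 over the 4 tumours. Both mates appear to be counted, so counting errors are larger than the printed counts imply.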
